A study of Mus musculus with 20 samples.

Results

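The ELAVL and CELF families of RNA-binding proteins were followed through the first postnatal weeks in ribosome-bound mRNA of mouse hippocampus. The 10 genes, Elavl1 to Elavl4 and Celf1 to Celf6, were taken by symbol from a table of 32245 genes, in which each has 1 row. All 10 passed the filter on low counts, as did 15373 genes in all. Every library came from Rbp4-Cre:RiboTag hippocampus, in which Cre expressed from Rbp4 regulatory sequences switches on an HA-tagged copy of the ribosomal protein RPL22. Tagged ribosomes were captured with anti-HA beads, and the labels call the captured cells granule cells, the principal neurons of the dentate gyrus. There were 5 libraries at postnatal day 5 (P5) and 3 each at P7, P10, P15, P21 and P28, all of the same genotype, so the only labelled differences were age and batch. Of the 3 labelled batches, A comprised 3 P5 libraries with all of P10 and P15, B comprised the other 2 P5 libraries with all of P7, and C comprised P21 and P28. RNA not selected on ribosomes was not analysed here, so enrichment over whole hippocampus is not given. Separate animals are not stated for the replicates, and the p-values thus speak only of spread among these libraries, which may be technical. It is also not stated whether same-numbered P5 libraries of batches A and B stem from 1 lysate, which would lower the number of independent P5 samples.

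ELAVL proteins, also called Hu proteins, bind U-rich and AU-rich stretches, mostly in introns and 3′ untranslated regions (UTRs), and are known for stabilising mRNAs and for steering splicing and polyadenylation in neurons. Elavl1 (HuR) is made in nearly all cells, whereas Elavl2 (HuB), Elavl3 (HuC) and Elavl4 (HuD) are largely neuronal. CELF proteins bind GU-rich elements, regulate alternative splicing in the nucleus, often in opposition to MBNL proteins, and in the cytoplasm recruit deadenylases that shorten the life of an mRNA. Celf1 and Celf2 are broadly made, and Celf3 to Celf6 are found mainly in the nervous system.

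Total counts were 15.9 to 24.9 M per library. Prox1, the transcription factor that defines granule cells, lay between 410 and 655 CPM (counts relative to the TMM-scaled library total) in every library. Summed markers of newborn neurons were 535 to 682 CPM at P15, against 2720 to 3260 CPM at P5, and summed granule cell markers were 2350 to 2480 CPM at P15, against 1540 to 1690 CPM at P5. Astrocyte and oligodendrocyte lineage markers were present at every age, with an astrocyte sum of 1240 to 1550 CPM at P15, against 670 to 719 CPM at P5, and an oligodendrocyte lineage sum of 1070 to 1860 CPM at P15, against 190 to 268 CPM at P5. Neural progenitor markers summed to 60.7 to 83.4 CPM at P15, against 253 to 411 CPM at P5, and endothelial and mural markers to 41.4 to 58.5 CPM at P15, against 80.5 to 147 CPM at P5. P10 replicate 2 stood apart from the other P10 libraries, with fewer counts of pyramidal neuron markers, of most mossy cell markers and of summed newborn neuron markers. More counts were found there of granule cell, glial and neural progenitor markers. The calls at P10 that change without it are given with and without it. In bulk samples, fewer cells of a type and less RNA per cell cannot be told apart, and the part of any other cell type in the changes below was not tested.

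Letter patterns that ELAVL and CELF proteins are known to bind were looked for in 3′UTRs, on the transcribed strand. They were the GU-rich element of CELF1, spelled in capitals in the Bdnf and Jun lines, a run of 8 U (TTTTTTTT) for ELAVL proteins and the AU-rich nonamer TTATTTATT, which ELAVL1 shares with decay factors such as ZFP36. In the first 1000 bases of the 3′UTR, 2.47% of 10170 genes with a 3′UTR of at least that length held the GU-rich element, 24.4% held the U run and 5.59% held the nonamer. Of the 10 family members, all with 3′UTRs of at least that length, none held the GU-rich element or the nonamer in that window and 2 held the U run, Elavl1 and Celf5. Over its whole 3′UTR of 4218 bases, Elavl1 held 11 U runs and 8 nonamers, counting overlapping matches. The sites below show what these patterns look like in the families' own mRNAs and in 4 mRNAs that have been reported as targets. Each is a stretch of 30 bases of the 3′UTR from the mm10 assembly with GENCODE vM21 gene models, written 5′ to 3′ on the gene's strand, with the pattern in capitals.
Elavl1 U run, chr8:4289570-4289599, minus strand: ctcgctcatgcTTTTTTTTtctttccttct
Elavl1 AU nonamer, chr8:4285787-4285816, minus strand: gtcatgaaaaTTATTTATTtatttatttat
Elavl4 AU nonamer, chr4:110204984-110205013, minus strand: cttgaaacacTTATTTATTtaattgcagat
Celf3 AU nonamer, chr3:94492115-94492144, plus strand: ttctctactcTTATTTATTgagttttactt
Celf5 U run, chr10:81461380-81461409, minus strand: tatttttagtgTTTTTTTTttttttctttt
Bdnf GU element, chr2:109724730-109724759, plus strand: gttttatttTGTTTGTTTGTttgttttgtt
Jun GU element, chr4:95049672-95049701, minus strand: gttattccaTGTTTGTTTGTttgggtgtcc
Fos AU nonamer, chr12:85477103-85477132, plus strand: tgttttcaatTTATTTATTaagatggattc
Ptgs2 AU nonamer, chr1:150105790-150105819, plus strand: ctgaccatatTTATTTATTtatgtgaagaa
In Elavl1 the U run starts at base 12 of the 3′UTR, near the stop codon, while the nonamer shown starts at base 3794, close to the far end. A match to these letters describes the sequence and is not evidence of binding.

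The families did not move as blocs. At P15, against P5, Celf1, Celf4, Elavl1 and Celf5 rose, and Elavl2, Elavl3, Elavl4, Celf2, Celf3 and Celf6 fell. All 10 members were thus past the threshold (edgeR quasi-likelihood test, Benjamini-Hochberg adjusted p under 0.05 over all genes tested), where 63.4% of all genes tested were. By direction, 4 members were higher and 6 were lower, beside 31.6% and 31.8% of all genes. The median log2 change of the members was -0.23, and that of all genes was -0.02. Of all genes called, 49.8% were higher, and 39.2% when libraries were scaled by total counts. At P28, against P5, 9 members were called, 3 higher and 6 lower, with 71.6% of all genes called, 35.2% higher and 36.4% lower. Celf5 was the member not called. P28 and P21 were processed in batch C alone, so the effect of age and of that batch cannot be told apart in any comparison of P28 with P5. A test for any difference among the 6 ages called all 10 members and 79.7% of all genes.

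**Figure D1:**
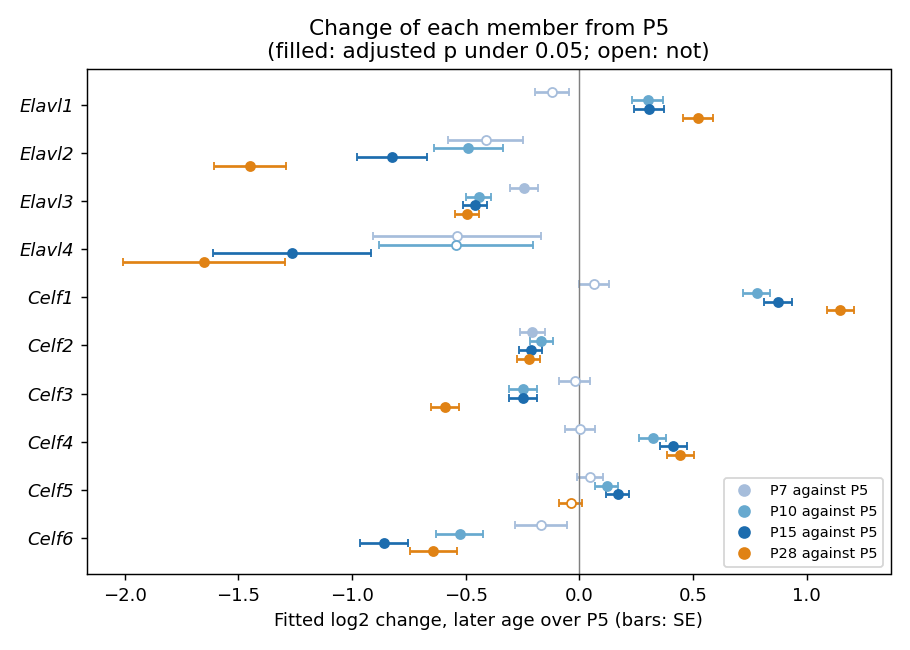
Fitted log2 change against P5 of each of the 10 genes (rows; change on the horizontal axis) at P7, P10, P15 and P28, with bars of 1 SE on either side of each point; filled points are past an adjusted p of 0.05. Celf1 stands highest at P10, P15 and P28, and Elavl4 and Elavl2 lowest at P28.

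Elavl1, which protects AU-rich mRNAs from decay in many cell types, was the ELAVL member that rose. Its levels were 89.8, 98.6, 95.6, 98.3 and 102 CPM in the P5 libraries, 100, 93.6 and 83.3 CPM at P7, 109, 118 and 123 CPM at P10, 123, 118 and 110 CPM at P15, 156, 139 and 139 CPM at P21 and 136, 135 and 136 CPM at P28. The libraries of P10 and of every later age lay above all 5 of P5, while those of P7 overlapped them. The log2 change was 0.31 ± 0.07 (SE) at P15 against P5 (adjusted p = 3.26e-04) and 0.52 ± 0.07 at P28 against P5 (adjusted p = 1.90e-07). The gene lies on mouse chromosome 8 (chr8:4285382-4325413, minus strand), and 204 bases of its exons overlap exons of Ccl25 on the opposite strand. The strand setting of the counting is not given in the sources used here, so reads in such overlaps cannot be assigned with certainty.

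The neuronal ELAVL genes all fell, by unequal amounts. Elavl3, a neuronal splicing and stability factor, was the most abundant of the family, at 468, 471, 498, 445 and 433 CPM at P5, 355, 400 and 358 CPM at P7, 359, 342 and 356 CPM at P10, 351, 334 and 361 CPM at P15, 333, 310 and 316 CPM at P21 and 329, 349 and 342 CPM at P28. Every library from P7 on lay below every P5 library, and the later ages lay close together. The log2 change was -0.24 ± 0.06 at P7 (adjusted p = 0.0094), -0.44 ± 0.05 at P10 (adjusted p = 1.67e-07) and -0.46 ± 0.05 at P15 (adjusted p = 7.28e-08), each against P5. The gene lies at chr9:22015005-22052023 on the minus strand and shares 256 bases of exon with Gm49318 on the same strand.

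Elavl2 and Elavl4, which promote neuronal differentiation, fell further. Elavl2 (chr4:91250763-91400785, minus strand) had 42.1, 49.4, 45.5, 41.9 and 48.9 CPM at P5, 29.2, 39.4 and 33.6 CPM at P7, 38.9, 23.9 and 34.8 CPM at P10, 25.7, 26.8 and 24.8 CPM at P15, 15.1, 13.5 and 19.3 CPM at P21 and 17.8, 16.9 and 15.4 CPM at P28. Its log2 change was -0.82 ± 0.15 at P15 (adjusted p = 1.70e-04) and -1.45 ± 0.16 at P28 (adjusted p = 3.49e-07), both against P5, and the groups did not overlap. Elavl4 (chr4:110203722-110351909, minus strand), which is known to stabilise Gap43 mRNA, had 60.7, 87.8, 97.4, 83.4 and 66.1 CPM at P5, 38.9, 72 and 43.4 CPM at P7, 67.9, 31.4 and 69.6 CPM at P10, 41.9, 32.1 and 28.2 CPM at P15, 18.7, 17.2 and 33.9 CPM at P21 and 27.8, 29.4 and 20.9 CPM at P28. Its libraries of P7 and P10 overlapped those of P5, and those of P15 and P28 lay below all of P5. The log2 change of Elavl4 was -0.54 ± 0.34 at P10 (adjusted p = 0.182; -0.26 and 0.511 without P10 replicate 2), -1.27 ± 0.35 at P15 (adjusted p = 0.00578) and -1.65 ± 0.36 at P28 (adjusted p = 8.72e-04).

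**Figure D2:**
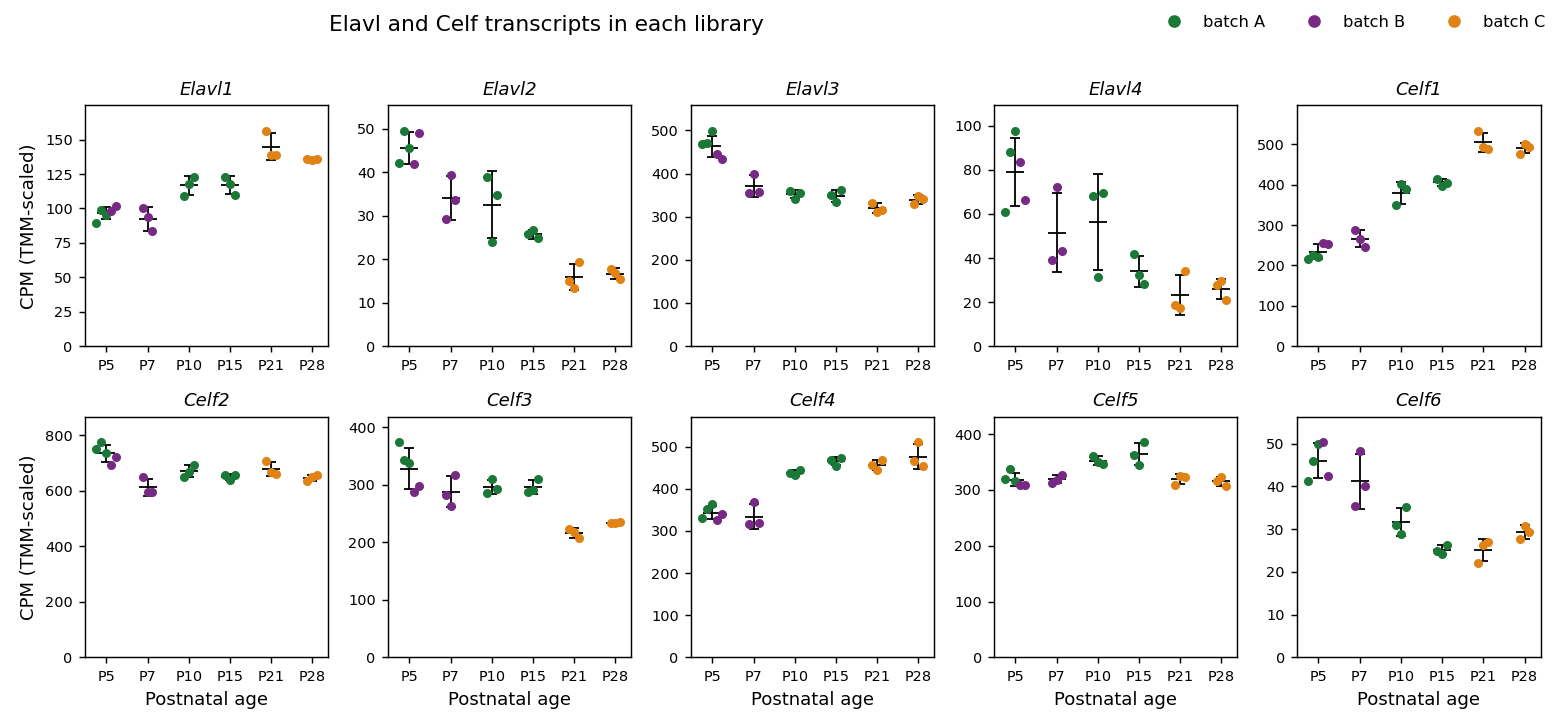
CPM of each of the 10 genes in every library against age (P5 to P28), with points coloured by batch and the mean ± SD of each age. Celf1 reaches 477 to 501 CPM at P28, against 216 to 255 CPM at P5, while Elavl4 is at 20.9 to 29.4 CPM at P28, against 60.7 to 97.4 CPM at P5.

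Elavl4 had a wide spread within ages, with a coefficient of variation from 17.3% at P28 to 39.7% at P21, and 19.4% over the P5 libraries. Within ages it moved with markers of other hippocampal excitatory neurons and of newborn neurons. Its deviation from the mean of its age and batch had the same sign as that of summed mossy cell markers in 19 of 20 libraries and as that of summed CA pyramidal markers in 17 of 20, beside 15 of 20 for newborn neuron markers and 5 of 20 for granule cell markers. Some CELF members also varied with these sums. Celf3 had the sign of the CA pyramidal sum in 3 of 20 libraries and that of the mossy cell sum in 3 of 20. Celf6 had the sign of the granule cell sum in 5 of 20 and that of the mossy cell sum in 15 of 20. Deviations cancel within each age and batch, so the signs of the 20 libraries are not independent. Calb2 is in both the mossy cell and the newborn neuron list. Most of the mossy cell sum came from Sv2b, Ap2s1 and Gria3, with means of 260, 144 and 112 CPM at P5. The sum thus mainly follows these genes, and Sv2b alone ranged from 135 to 328 CPM at P10. At P10, replicate 2 had 31.4 CPM of Elavl4 and 336 CPM of CA pyramidal markers in sum, while replicates 1 and 3 had 67.9 and 69.6 CPM of Elavl4 and 924 and 838 CPM of the markers. In that library 8 of the 9 CA pyramidal markers measured were lower than in both other P10 libraries, and all 10 granule cell markers were higher. Also higher there were 11 of 12 oligodendrocyte lineage, 7 of 10 astrocyte, 7 of 10 neural progenitor and 6 of 10 microglia markers. In each of these lists 0 markers were lower. Of the mossy cell markers, 7 of 10 were lower there and 3 higher, and of the newborn neuron markers 5 of 10 were lower and 2 higher. The newborn neuron sum was 702 CPM in replicate 2 and 1120 CPM in each of the other P10 libraries. Over ages, the CA pyramidal sum was 389 to 562 CPM at P28, against 364 to 622 CPM at P5, and the mossy cell sum was 538 to 608 CPM at P28, against 542 to 600 CPM at P5. Both sums hold genes that moved apart. At P28 against P5, 4 of 9 tested CA pyramidal markers were called higher and 4 lower. Of 9 tested mossy cell markers, 2 were called higher and 3 lower, beside 35.2% and 36.4% of all genes. The newborn neuron sum was 432 to 459 CPM at P28, against 2720 to 3260 CPM at P5. It was also lower at P7 (1520 to 1990 CPM) and P10 (702 to 1120 CPM), ages at which Elavl4 was not called against P5. The mean log2 level of the CA pyramidal markers was also used as a covariate, an alternative chosen after seeing the data. With this CA pyramidal covariate, the Elavl4 change was -1.18 at P10 (adjusted p = 2.57e-04) and -1.45 at P15 (adjusted p = 1.22e-05) against P5. The part of newborn neurons, CA pyramidal cells and mossy cells in the Elavl4 values was not tested. None of the CA pyramidal markers was at 0 in any library, while Calcr of the mossy cell list was at or near 0. Csf2rb2, Nmb and Drd2 of the mossy cell list were low too, with P5 means of 0.748, 0.92 and 1.99 CPM.

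**Figure D3:**
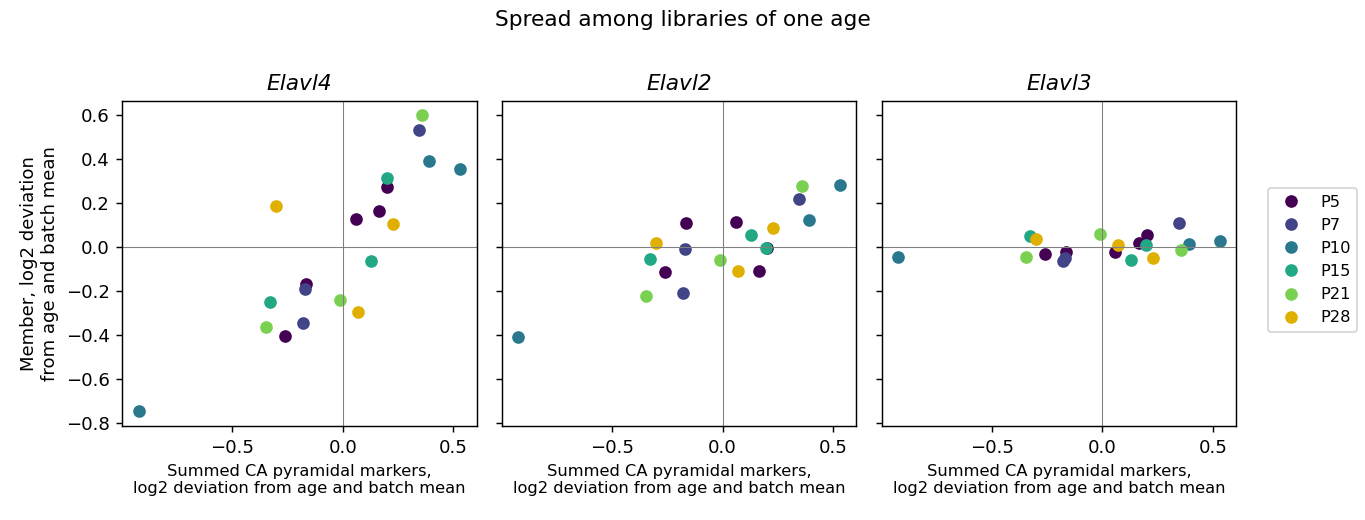
Deviation of log2 CPM from the mean of its age and batch for Elavl4, Elavl2 and Elavl3 (vertical axes) against the same deviation of summed CA pyramidal markers (horizontal axis), 1 point per library. Elavl4 had the sign of the marker sum in 17 of 20 libraries, Elavl2 in 14 and Elavl3 in 13. Deviations cancel within each age and batch, so these signs are not independent.

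Celf1, the CELF member best known for binding GU-rich elements and recruiting deadenylases, had the largest rise of the 10 genes. Its levels were 216, 227, 220, 255 and 254 CPM at P5, 288, 265 and 245 CPM at P7, 349, 401 and 388 CPM at P10, 414, 397 and 405 CPM at P15, 532, 494 and 488 CPM at P21 and 477, 501 and 492 CPM at P28. Every library from P10 on lay above every library of P5 and P7. It averaged 405 ± 8.41 CPM at P15 and 234 ± 18.8 CPM at P5 (SD, n = 3 and 5). The P5 mean was 221 CPM in batch A and 254 CPM in batch B. The fitted log2 change, in effect against P5 of batch A, was 0.87 ± 0.06 (adjusted p = 4.99e-12), or 1.83-fold. At P28 against P5 the change was 1.15 ± 0.06 (adjusted p = 1.64e-14). The gene lies at chr2:90940382-91019497 on the plus strand, and no exon of it overlaps another gene.

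Celf4, which is abundant in excitatory neurons and whose loss causes seizures in mice, rose as well. It had 331, 353, 365, 327 and 339 CPM at P5, 316, 368 and 318 CPM at P7, 437, 432 and 445 CPM at P10, 469, 455 and 474 CPM at P15, 457, 445 and 469 CPM at P21 and 465, 510 and 454 CPM at P28. The libraries from P10 on lay above all earlier ones and close to each other. The log2 change was 0.32 ± 0.06 at P10 (adjusted p = 5.34e-05) and 0.41 ± 0.06 at P15 (adjusted p = 1.61e-06) against P5. Celf5, a neural paralog of Celf4 (chr10:81459227-81482709, minus strand), was higher in the middle ages only, with 319, 337, 316, 309 and 308 CPM at P5, 313, 317 and 327 CPM at P7, 361, 350 and 346 CPM at P10, 363, 345 and 385 CPM at P15, 309, 325 and 323 CPM at P21 and 316, 323 and 307 CPM at P28. Its log2 change was 0.17 ± 0.05 at P15 (adjusted p = 0.00527) and -0.04 ± 0.05 at P28 (adjusted p = 0.501) against P5. The call of Celf5 at P10 (0.12 ± 0.05, adjusted p = 0.0409) was lost with its sign kept in 19 of 30 alternatives. In 1 more, with total counts, the sign of the Celf5 change turned (-0.01). Its call at P15 was lost when libraries were scaled by total counts (0.05, adjusted p = 0.444) and without P15 replicate 3 (0.12, adjusted p = 0.0556), while with total counts it was called lower at P28 (-0.16, adjusted p = 0.00911). Exons of Celf5 overlap Gm16105 on the opposite strand over 543 bases.

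Celf2, Celf3 and Celf6 fell. Celf6, a splicing factor with restricted neural expression (chr9:59577917-59607292, plus strand), had the largest fall of the CELF genes at P15 against P5, with 41.3, 46, 49.9, 50.3 and 42.5 CPM at P5, 35.5, 48.2 and 40 CPM at P7, 31, 28.8 and 35.3 CPM at P10, 25, 24.2 and 26.4 CPM at P15, 22.1, 26.4 and 26.9 CPM at P21 and 27.6, 30.8 and 29.4 CPM at P28. All libraries from P10 on lay below all of P5 and P7. The log2 change of Celf6 was -0.86 ± 0.11 at P15 (adjusted p = 2.25e-07) and -0.64 ± 0.10 at P28 (adjusted p = 9.59e-06) against P5.

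Celf3, a brain-enriched splicing activator (chr3:94478295-94492198, plus strand), had 374, 344, 338, 287 and 298 CPM at P5, 283, 264 and 318 CPM at P7, 286, 310 and 293 CPM at P10, 287, 291 and 311 CPM at P15, 224, 218 and 208 CPM at P21 and 233, 233 and 235 CPM at P28. The last 2 of the P5 values are of batch B, and the libraries of P15 overlapped those but lay below the 3 of batch A. Celf3 was the member that differed between the batches at P5, by a log2 value of -0.27 for batch B minus batch A (adjusted p = 0.0127), where 10.1% of all genes differed. Its log2 change was -0.25 ± 0.06 at P15 (adjusted p = 0.00105) and -0.59 ± 0.06 at P28 (adjusted p = 5.64e-09) against P5, and without a term for batch the change at P15 was -0.15 (adjusted p = 0.083). Celf2, a regulator of splicing in brain, heart and T cells (chr2:6539694-7509563, minus strand), had 751, 774, 736, 694 and 721 CPM at P5, 648, 594 and 595 CPM at P7, 651, 669 and 692 CPM at P10, 657, 637 and 655 CPM at P15, 708, 669 and 661 CPM at P21 and 635, 648 and 656 CPM at P28. Its log2 change was -0.21 ± 0.05 at P15 (adjusted p = 6.84e-04) and -0.22 ± 0.05 at P28 (adjusted p = 3.93e-04) against P5. Exons of Celf2 overlap Gm26565 over 1961 bases and those of Celf3 overlap Riiad1 over 74 bases, each on the opposite strand.

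For most members the difference from P5 was present by P10. At P10 against P5, 9 of 10 members were called, 4 higher and 5 lower, where 61.4% of all genes were called, 30.8% higher and 30.6% lower. Elavl4 was the member not called. Without P10 replicate 2, 8 were called, since Celf5 was not (0.12, adjusted p = 0.0922). At P7 against P5, 2 members were called, Elavl3 and Celf2, both lower, where 11.0% of all genes were called, 6.15% higher and 4.89% lower. Elavl2 was not called at P7 (-0.41, adjusted p = 0.125), but it was called lower in 4 of 29 alternatives. Among these was the fit without P10 replicate 2 (-0.42, adjusted p = 0.0243). Without replicate 1 of P5 in batch B, 1 P5 library was left in that batch, and the changes were -0.22 for Elavl3 (adjusted p = 0.117) and -0.23 for Celf2 (adjusted p = 0.0733). Celf2 was also not called without replicate 3 of P5 in batch B (-0.18, adjusted p = 0.135) or without P7 replicate 2 (-0.18, adjusted p = 0.0671). Between P10 and P15, with 4.36% of all genes called, edgeR called 0 members at P15 against P10, with 2 at an unadjusted p under 0.05 (Elavl2 and Celf6). DESeq2 and limma-voom called 0 as well. Without P10 replicate 2, Elavl2 (-0.52, adjusted p = 0.0114) and Celf6 (-0.40, adjusted p = 0.0318) were both called lower at P15, and Celf6 was also called without P7 replicate 1 (-0.33, adjusted p = 0.0482) or P7 replicate 2 (-0.33, adjusted p = 0.0434). At P28 against P21, 0.254% of all genes and 0 members were called by edgeR, 0 members had an unadjusted p under 0.05, and DESeq2 and limma-voom called 0. With 2 SE on either side, the P28 minus P21 log2 difference was -0.16 to 0.07 for Celf1 and -0.59 to 0.91 for Elavl4.

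The balance within each family was described by dividing CPM by exon length and taking each member's share of its family. Elavl3 held 71.2% ± 1.21 (SD, n = 3) of the ELAVL sum at P28 and 69.5% ± 2.03 (SD, n = 5) at P5. Behind it, the share of Elavl1 was larger and that of Elavl4 smaller at P28. Elavl1 held 18.9% ± 0.512 at P28 and 9.69% ± 0.776 at P5, while Elavl4 held 6.97% ± 1.13 at P28 and 15.1% ± 2.17 at P5. This order of levels at P5 depends on the length used. Elavl4 had the larger share in 5 of 5 P5 libraries with all exons and in 3 of 5 with the longest transcript, where the mean shares at P5 were 12.2% for Elavl1 and 13.6% for Elavl4. At P28 they were 23.3% for Elavl1 and 6.17% for Elavl4 with the longest transcript, and Elavl1 was ahead in all 3 libraries with either length. Elavl2 had the smallest share, at 2.9% ± 0.218 at P28 and 5.68% ± 0.519 at P5.

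In the CELF family, Celf3 held the largest share at P5 (27.6% ± 2.23) and Celf1 at P28 (24.5% ± 0.359). Celf1 stood at 12.9% ± 1.45 at P5, beside 13.1% ± 0.197 for Celf2, and their order differed between the batches. In the P5 libraries of batch A, Celf1 held 11.6% to 12% and Celf2 12.9% to 13.3%. In those of batch B, Celf1 held 14.3% and 14.5% and Celf2 13.3% and 12.9%. At P28 the next largest share was that of Celf4, at 23.4% ± 0.897, within reach of the spread of Celf1, followed by Celf5 at 20% ± 0.336 and Celf3 at 18.1% ± 0.478. Celf6 had the smallest share at both ages, with 3.42% ± 0.119 at P28 and 5.87% ± 0.599 at P5. The order within the CELF family depends on the length used. With the longest transcript in place of all exons, Celf1 held 15.4% at P28 and 7.81% at P5, and Celf4, at 29.4%, held the largest share at P28. Celf2 held 21.6% at P5 with that length, well above Celf1. Under both lengths the share of Celf1 was larger at P28 than at P5.

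**Figure D4:**
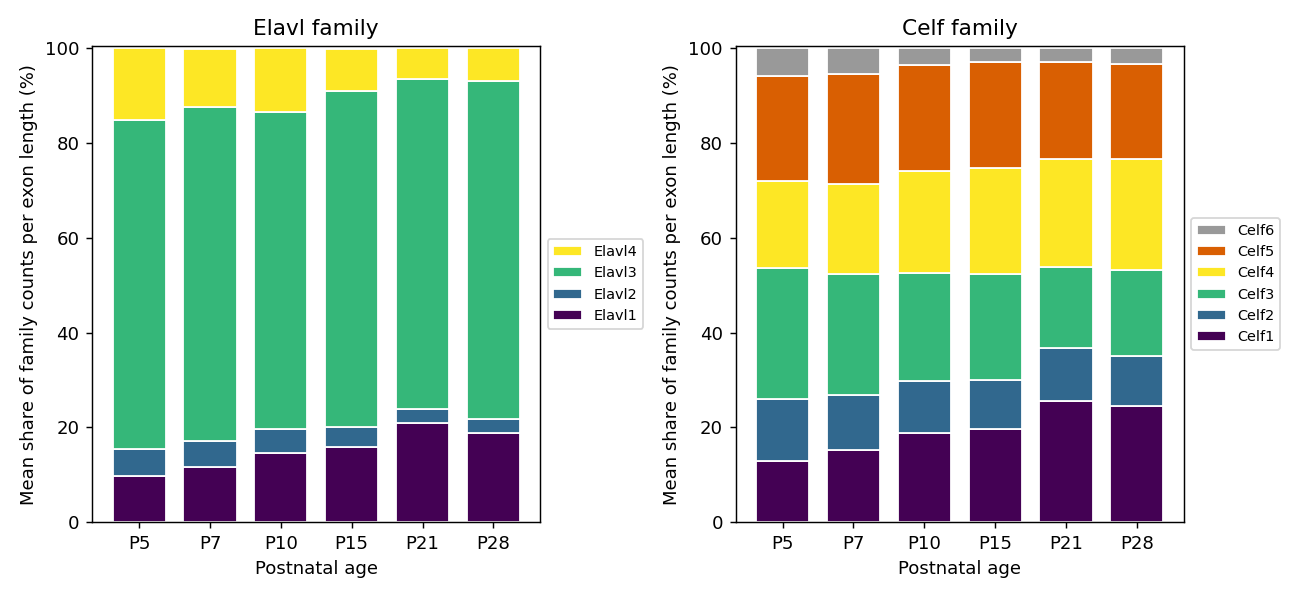
Mean share of each member in the summed CPM per kilobase of exon of its family (vertical axis, percent) at each age, ELAVL family and CELF family in separate panels. Elavl1 takes 18.9% at P28 and 9.69% at P5, and Celf1 takes 24.5% at P28 and 12.9% at P5.

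The promoters of 3 members are shown because they rest on a single RefSeq start and their genes moved in different directions, Celf1 and Elavl1 upward and Elavl3 downward. Each runs from 250 bases before to 50 bases after the start in RefSeq GRCm38.p6, written 5′ to 3′ on the gene's strand. Capitals mark, on either strand, the E box variants (CAGCTG, or with other inner bases CACCTG, or else CAGATG), the GC box (letters GGGCGG), the TATA box (letters TATAAA) and the CCAAT box.
Celf1, chr2:90940147-90940446, plus strand: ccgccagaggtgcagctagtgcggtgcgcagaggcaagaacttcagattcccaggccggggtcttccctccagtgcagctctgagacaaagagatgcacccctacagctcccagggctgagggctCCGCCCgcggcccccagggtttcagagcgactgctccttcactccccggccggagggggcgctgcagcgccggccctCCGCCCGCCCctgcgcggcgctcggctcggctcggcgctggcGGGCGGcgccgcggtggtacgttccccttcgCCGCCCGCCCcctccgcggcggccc
Elavl1, chr8:4325051-4325350, minus strand: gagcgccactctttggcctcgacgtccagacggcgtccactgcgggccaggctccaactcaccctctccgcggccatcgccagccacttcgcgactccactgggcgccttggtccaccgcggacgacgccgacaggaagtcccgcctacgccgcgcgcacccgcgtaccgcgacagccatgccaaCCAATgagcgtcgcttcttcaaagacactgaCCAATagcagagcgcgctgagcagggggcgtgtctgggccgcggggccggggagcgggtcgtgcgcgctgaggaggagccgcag
Elavl3, chr9:22051974-22052273, minus strand: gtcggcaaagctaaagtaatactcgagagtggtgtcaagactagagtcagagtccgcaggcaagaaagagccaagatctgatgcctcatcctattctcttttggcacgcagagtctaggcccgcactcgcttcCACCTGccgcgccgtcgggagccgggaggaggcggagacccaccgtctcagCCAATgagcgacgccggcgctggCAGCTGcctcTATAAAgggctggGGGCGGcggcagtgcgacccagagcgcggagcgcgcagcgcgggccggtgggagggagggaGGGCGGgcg
The Celf1 window held 6 GC boxes, counting overlapping matches, and none of the other patterns, with 74.3% G and C. The Elavl1 window held 2 CCAAT boxes, and the Elavl3 window held 1 TATA box, 1 CCAAT box, 2 GC boxes and 1 each of the first E box variants (CAGCTG and then CACCTG). Of 32851 promoters of this length, 35.7% held a GC box, 37.4% a CCAAT box, 13.6% a TATA box, 16.3% CAGCTG, 20.2% CACCTG and 17.2% CAGATG, so each of these patterns is common.

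Genes with the closest course over the 20 libraries were named by the correlation of log2 CPM among 11203 candidates, as a description, since all these genes share libraries, scaling and the trend with age. For Celf1 they were Fkbp5, a co-chaperone of steroid receptors (Pearson r = 0.995), Mrtfb and Klhl3. For Elavl1 they were Foxo1, a forkhead transcription factor (r = 0.985), Cacna1e and Gatad2b. Elavl2 was nearest to Igsf21 (r = 0.98), Insyn2a and Cadm4, Elavl3 to Sec22c (r = 0.962), Ikzf4 and Stx7, and Elavl4 to Bmp3 (r = 0.968), Ldb2 and Khdrbs3. Celf4 was nearest to Fam174a (r = 0.971), Yaf2 and Shisa4, Celf6 to Rcn1 (r = 0.974), Nrg1 and Prkra, and Celf3 to Mospd3 (r = 0.96), Nectin1 and Tmem63b. Celf2 and Celf5 had no close match, with Ptma (r = 0.888) and Cacng7 (r = 0.899) the nearest. Of the 30 genes nearest by Pearson correlation, 11 were also among the 3 nearest by Spearman correlation, all 3 for Elavl1 and for Celf6 and none for Elavl2, Elavl3, Celf1 and Celf5. Within the families, Elavl2 and Elavl4 ran together (r = 0.95), as did Elavl1 and Celf1 (r = 0.95), and Celf1 and Elavl2 ran opposite (r = -0.91).

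Other proteins that bind 3′UTRs or cooperate with these families also changed in both directions. Of 35 genes of AU-rich element binding and mRNA turnover, 10 were higher and 9 lower at P15 against P5 (median log2 change 0.06, against -0.02 for all genes). For this and the next 3 lists, 31.6% of all genes were higher and 31.8% lower in the same comparison, and nothing particular to a list is read from its counts. Khsrp, which promotes decay of AU-rich mRNAs, was at 172 CPM at P15 and 135 CPM at P5 (log2 change 0.34 ± 0.05, adjusted p = 2.83e-06). Cnot8, a deadenylase subunit, changed by 0.43 ± 0.06, Pan3 by 0.52 ± 0.08 and the decapping factor Dcp1a by 0.51 ± 0.08. Zfp36l1, which destabilises AU-rich mRNAs and is named here after its values were seen, was lower, at 6.44 CPM at P15 and 12.4 CPM at P5 (-1.11 ± 0.18, adjusted p = 1.18e-05).

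Of 26 tested genes for other neuronal 3′UTR binding proteins, 7 were higher and 12 lower at P15 against P5 (median -0.20). Cpeb1, which controls cytoplasmic polyadenylation, was at 29.2 CPM at P15 and 5.29 CPM at P5 (log2 change 2.47 ± 0.11, adjusted p = 1.40e-15). Purb (0.93 ± 0.07) and Fxr2 (0.54 ± 0.05) rose and Ybx1 fell (-0.62 ± 0.05). The growth-associated Igf2bp1, Igf2bp2 and Igf2bp3, chosen after their values were seen, fell by 2.44, 2.08 and 4.03 on the log2 scale, and the mean of Igf2bp3 at P15 was 0.105 CPM, below the level of 3 counts. Of 21 tested splicing partners, 8 were higher and 11 lower (median -0.15). Rbfox1, a neuronal splicing factor, was at 505 CPM at P15 and 175 CPM at P5 (1.70 ± 0.08, adjusted p = 4.41e-15). Rbfox3 (0.86 ± 0.05) and Mbnl2 (1.58 ± 0.09), whose family often opposes CELF proteins, rose, and Hnrnpa1 fell (-1.14 ± 0.06, adjusted p = 1.61e-14).

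Of 20 mRNAs reported as targets of ELAVL or CELF proteins, 10 were higher and 8 lower at P15 against P5 (median 0.30), beside 31.6% and 31.8% of all genes. Mapt, which encodes tau, was at 477 CPM at P15 and 1920 CPM at P5 (-1.99 ± 0.07, adjusted p = 2.54e-17). Gap43, the growth cone mRNA that Elavl4 is known to stabilise, named after its values were seen, was at 146 CPM at P15 and 718 CPM at P5 (-2.18 ± 0.40, adjusted p = 3.18e-04). Camk2a, at 6350 CPM at P15 and 2080 CPM at P5 (1.83 ± 0.08), and the sodium channel gene Scn8a, at 306 CPM at P15 and 152 CPM at P5 (adjusted p = 1.13e-13), rose. Ptgs2, which encodes cyclooxygenase 2 and carries the AU nonamer shown above, was at 11.6 CPM at P15 and 0.289 CPM at P5 (6.01 ± 0.27, adjusted p = 1.89e-15). Its P5 mean lay near the level of 3 counts, which was 0.143 to 0.175 CPM in the P5 libraries, so the size of its change rests on few reads. The other 3 mRNAs whose sites are shown were also higher at P15, Fos by 3.26 ± 0.25, Bdnf by 0.93 ± 0.07 and Jun by 0.82 ± 0.07 on the log2 scale; these 3 were picked with their values in view. In the first 1000 bases of the 3′UTR, 10 of the 16 targets with a long enough 3′UTR held the U run, 4 held the AU nonamer and 2 held the GU-rich element. At P28 against P5, the counts of genes higher and lower were 16 and 9 for turnover factors, 8 and 15 for other 3′UTR binding proteins, 7 and 7 for splicing partners and 9 and 8 for reported targets, beside 35.2% and 36.4% of all genes.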

How the data were processed

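The authors deposited a table of raw counts per gene symbol, 1 column per library, without normalization, and 8790 of its 32245 genes were at 0 in every library. Per the submitters' processing notes, STAR 2.7.5b, featureCounts and SAMtools 1.10 were used with the mm10 build, and per the labels' protocols the libraries were stranded and poly-A selected. Neither the annotation nor the strand setting is given in the sources used here. Totals were 15.9 to 24.9 M counts, and 3 counts correspond to 0.122 to 0.181 CPM (counting error only).

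Counts were fitted with edgeR 4.0.16 in R 4.3.3 (TMM factors, default filter by age, robust quasi-likelihood, all 20 libraries, a mean per age, a batch B term, 13 residual degrees of freedom). The batch term is estimated from P5, so P10, P15 and P28 are in effect set against P5 of batch A, and P7 against P5 of batch B. Mean CPM at P5 is over all 5 libraries. P-values were adjusted over 15373 genes (Benjamini-Hochberg, 0.05). The errors of log2 changes are SEs, and CPM uses TMM-scaled totals. The fit was tested on simulated data. DESeq2 1.42.0, limma 3.58.1, other scalings and filters, no batch term, a replicate block and leaving out each library were the alternatives. Libraries of the same age differed by more than counting noise (chi-square over degrees of freedom at least 3.85), so none was treated as a repeat deposit, though preparations of 1 lysate can differ as much.

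The genes and lists were chosen with earlier results of these data known. Beside the 10 genes, the text names the 3 genes nearest to each by Pearson correlation (mean of at least 5 CPM at 1 age, log2 of CPM + 0.5) and the 4 genes of each list with the smallest p at P15 against P5. Lin28a, Mbnl3 and 1 mossy cell marker did not pass the filter, and 1 CA pyramidal marker was not found by its symbol. Replicate numbers were not taken to pair libraries.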

Additional observations from a re-analysis of the deposited data

How the results depend on the processing

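The 10 calls at P15 against P5 kept their direction in all 30 alternatives, and 9 or 10 were past the threshold in each. Other counts moved with the setting. At P7 against P5, 1698 genes were called, 3035 with total counts and 3586 without a batch term. Leaving out each library gave 518 to 1848, the lowest without replicate 1 of P5 in batch B, and 1020 without replicate 3 there. The members called there numbered 4 with total counts, 4 without a batch term and 4 with the CA pyramidal covariate, and 0 to 3 when each library was left out. At P15 against P10, 670 genes were called, 1007 by DESeq2, 405 without a batch term, 407 with the covariate and 108 to 1473 leaving out each library, with 0 to 2 members. At P28 against P21, 39 genes were called, 64 without a filter, 165 by DESeq2, 19 by limma-voom, 11 without a batch term, 19 with the replicate block, 76 with the covariate and 9 to 55 leaving out each library (25 without P5 replicate 2 of batch A). The cause of these shifts was not tested.

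With total counts the all-gene median log2 change at P15 against P5 was -0.14, against -0.02 with TMM, and the share of called genes that were higher was 39.2%, against 49.8%. These shares were 18% against 55.7% at P7, 37.6% against 50.1% at P10 and 40.9% against 49.2% at P28, each against P5, and 51.5% against 25.6% at P28 against P21.

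Signs turned as follows. Celf4 at P7 against P5 was 0 with RLE factors, 0 by DESeq2, -0.11 with total counts, -0.04 without a batch term, -0.01 with the block, 0 with the covariate and -0.06 to 0.05 leaving out each library. Celf3 at P15 against P10 was 0.01 with RLE factors, total counts, no filter or DESeq2, 0 with the stricter filter and -0.03 to 0.03 leaving out each library. With total counts, Celf1 (-0.05) and Celf5 (-0.06) at P7 against P5, Celf5 at P10 against P5 (-0.01) and Celf5 at P28 against P21 (0.01) changed sign, and with the covariate so did Elavl3 at P15 against P10 (0). Leaving out libraries also gave ranges across 0 for Celf3 at P7 against P5 (-0.10 to 0.05), Elavl1 (-0.05 to 0.05) and Elavl3 (-0.04 to 0.01) at P15 against P10, and Elavl2 (-0.04 to 0.23), Elavl4 (-0.01 to 0.54), Celf1 (-0.07 to 0) and Celf5 (-0.03 to 0.01) at P28 against P21.

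Same-numbered libraries were compared by their deviations of log2 CPM from the mean of their age and batch, over 10878 genes. In these deviations, 16 of 57 same-numbered pairs that differed in age or batch correlated above 0.1 (range -0.45 to 0.36). By the same measure, 4 of 20 libraries correlated best with their own number. Between the P5 libraries of batches A and B, the correlation of deviations was -0.19 for replicate 1 and -0.28 for replicate 3. Batch B holds 2 P5 libraries, whose deviations are mirror images of each other, so these values are not independent. Whether such libraries stem from 1 lysate was not tested. With the replicate block, the genes called were 1474 at P7, 9327 at P10, 9647 at P15 and 10941 at P28, each against P5, 528 at P15 against P10 and 12083 for any age, and the members called at P10 against P5 were 8.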
